A study of Caenorhabditis japonica with 3 samples.

Results

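The embryos described here are 11 of the 46 *Caenorhabditis japonica* embryos of a developmental time course: the 6 collected from 240 to 290 minutes after the 4-cell stage and the 5 collected from 190 to 230 minutes, at steps of 10 minutes. The embryos were assigned to a window by collection time, and the windows were chosen with earlier results of these data known. *C. japonica* is a nematode with males and females, related to *C. elegans*. Each value comes from 1 whole embryo, cut out of an adult, washed briefly in bleach and held in incubation until its time with no agent named, and each time has a single embryo, so the embryos of a window are replicates that differ in age by up to the width of the window. Both windows belong to the middle of 3 pooled libraries, which holds 16 embryos from 140 to 290 minutes. No library border therefore lies between them, but barcode numbers descend with time in this library (6 to 1 at 240 to 290 minutes, 11 to 7 at 190 to 230 minutes), so barcode and age cannot be told apart. The strain was not given in the sources used here, nor was the embryonic stage reached at each time.

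A nematode embryo starts on transcripts that the mother placed in the egg. In the following hours these are cleared while the embryo's own genome takes over, the cells divide rapidly and move inside during gastrulation, and the founder lineages commit to gut, muscle, epidermis, pharynx and neurons. Levels measured this way are shares of an embryo's reads, so a transcript can only be called higher or lower relative to the others. In a whole embryo, a lower level in each cell cannot be told apart from fewer cells that carry the transcript. The comparison asks which transcripts differ between these 2 successive windows of the same library.

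The assay was CEL-Seq, a method in which the RNA of an embryo receives a barcode during reverse transcription and is read at the 3′ ends of transcripts. The 6 embryos of 240 to 290 minutes had 82486, 44365, 454691, 12783, 222870 and 63666 reads in the 3955 listed genes, in order of age, and the 5 of 190 to 230 minutes had 12178, 219980, 93100, 325334 and 78473. The embryos at 270 and 190 minutes were shallow, with fewer reads than 0.25 of the median of all 46 embryos, which is 15457 reads. A difference in depth between the windows was not detected: log2 total reads averaged 16.3 ± 1.81 at 240-290 minutes and 16.5 ± 1.83 at 190-230 minutes (SD, n = 6 and 5, exact permutation p = 0.87, two-sided, adjusted p = 0.87 over 3 library measures). Drawn down to 12178 reads, an embryo showed 2375 ± 106 genes at 240-290 minutes and 2359 ± 12.8 genes at 190-230 minutes (SD, n = 6 and 5, exact permutation p = 0.81, adjusted p = 0.87). The 10 most abundant genes took 10.7% ± 2.16 of the reads at 240-290 minutes and 9.32% ± 2.04 at 190-230 minutes (SD, n = 6 and 5, exact permutation p = 0.31, adjusted p = 0.87). Genes carry an identifier without a name in the deposited counts, so none is described by function, and only the 2 largest rises and 2 largest falls are given by identifier. Markers of gut, muscle or other tissues could not be looked up for the same reason. Nothing in the labels says that the embryos came from separate mothers or cultures. The p-values set a difference against the spread between single embryos, age differences within a window included. In the main gene test this spread was estimated over all 16 embryos of the middle library.

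Between 190-230 and 240-290 minutes few transcripts were called as changed, and most of those called rose. A gene that was not called may still have changed. Of 1797 genes tested, 20 changed at an adjusted p under 0.05 in edgeR's quasi-likelihood test with Benjamini-Hochberg adjustment (1.11%). Among these, 15 genes (0.835% of those tested) were higher at 240-290 minutes and 5 (0.278%) were lower. The rises ran from 1.81 to 5.49 on the log2 scale with a median of 2.75, and 12 of the 15 were at least 4-fold. The falls ran from -2.74 to -1.80 with a median of -2.10, and 4 of the 5 were at least 4-fold. The median log2 fold change of all tested genes was -0.0055. At an unadjusted p under 0.05 there were 229 genes.

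**Figure D1:**
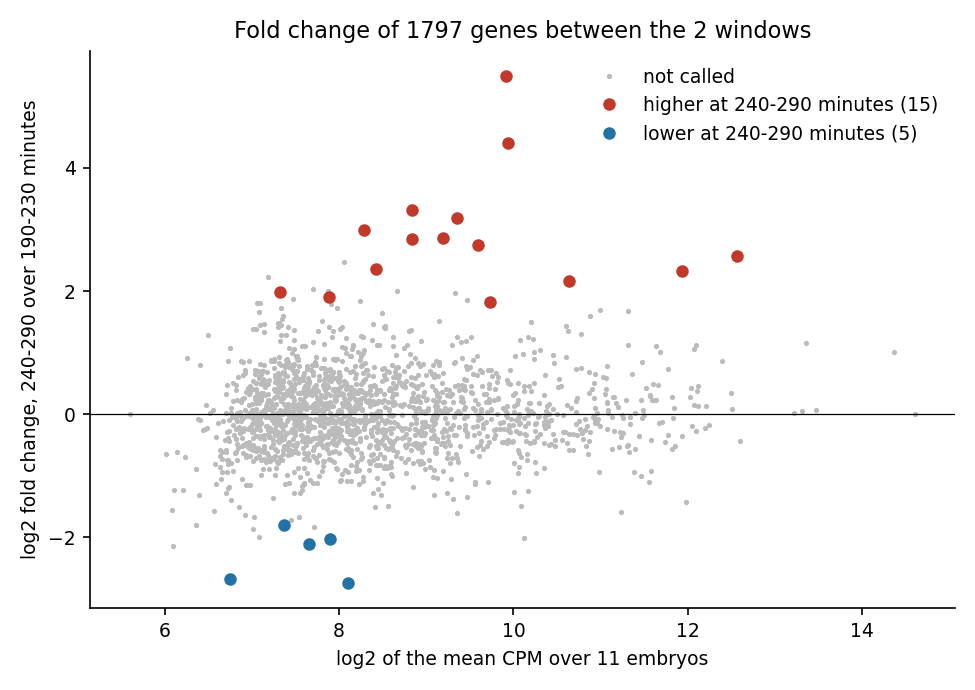
Each point is 1 of 1797 genes, with the log2 of its mean level in CPM (read counts scaled to the same total in every embryo) over the 11 embryos on the x axis and its log2 fold change, 240-290 over 190-230 minutes, on the y axis. The 15 genes that rose are red and the 5 that fell are blue, and the rises reach 5.49 while the largest fall is -2.74.

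The rising genes had a median level of 1113 CPM at 240-290 minutes (range 250.3 to 9740.1) and 107 CPM at 190-230 minutes (51.3 to 1661). The falling genes had a median of 82.4 CPM at 240-290 minutes (27.9 to 96.1) and 340 CPM at 190-230 minutes (202 to 504). Over all tested genes the median was 279 CPM at 240-290 minutes and 269 CPM at 190-230 minutes. CPM here are relative to the reads of the tested genes, scaled by TMM factors. Reads of the 15 rising genes made up 1.87%, 0.981%, 1.74%, 2.92%, 3.41% and 3.45% of the listed-gene reads of the 6 embryos from 240 to 290 minutes, and 0.641%, 0.290%, 0.604%, 0.375% and 0.301% of those of the 5 embryos from 190 to 230 minutes. The mean was 2.40% ± 1.01 at 240-290 minutes and 0.442% ± 0.168 at 190-230 minutes (SD, n = 6 and 5), and the 3 oldest embryos were the highest. The 5 falling genes took 0.0301% ± 0.0255 of the reads at 240-290 minutes and 0.150% ± 0.0793 at 190-230 minutes (SD, n = 6 and 5). These shares describe genes chosen on the same embryos and were not tested.

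CJA12015 showed the largest rise of the 20 genes in the edgeR fit, though CJA10655 rose more under DESeq2 (4.39 against 4.36 on the log2 scale), under limma-trend (3.97 against 3.47) and without the embryo at 210 minutes (5.225 against 5.220). The level of CJA12015 was 378, 289, 12.99, 3415, 2767 and 3279 CPM in the embryos from 240 to 290 minutes, in order of age, against 429, 27.0, 12.7, 10.9 and 28.9 CPM in those from 190 to 230 minutes. The embryos at 270, 280 and 290 minutes stood far above all others, while the embryo at 260 minutes lay among the younger ones and the shallow embryo at 190 minutes, with 5 reads, lay above the 3 youngest of the older window. The groups overlapped. The mean was 1690 ± 1622 CPM at 240-290 minutes and 102 ± 183 CPM at 190-230 minutes (SD, n = 6 and 5), a log2 fold change of 5.49 ± 1.11 (SE, edgeR adjusted p = 0.0091). Summed over embryos it had 724 reads at 240-290 minutes and 16 at 190-230 minutes, or 37.5 times as many per listed-gene read (exact 95% counting interval 22.9 to 65.9). The embryo at 280 minutes gave 477 of these reads, and the ratio was 17.1 without it and 76.9 without the embryo at 260 minutes. The rise passed in 19 of 20 alternatives and was lost under limma-trend (adjusted p = 0.27, the highest of a range that starts at 2.54e-04).

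CJA10655 rose with no overlap between the windows. Its level was 1233, 315, 1023, 2101, 2970 and 2697 CPM in the embryos from 240 to 290 minutes, against 85.8, 64.7, 215, 21.9 and 43.3 CPM in those from 190 to 230 minutes. All 6 older embryos lay above all 5 younger ones. The mean was 1723 ± 1035 CPM at 240-290 minutes and 86.2 ± 76.0 CPM at 190-230 minutes (SD, n = 6 and 5), a log2 fold change of 4.41 ± 0.61 (SE, edgeR adjusted p = 1.06e-04). It had 1156 reads at 240-290 minutes and 39 at 190-230 minutes, or 24.5 times as many per listed-gene read (counting interval 17.8 to 34.7). The ratio was 37.9 without the embryo at 210 minutes and 16.1 without that at 220 minutes. The rise passed in all 20 alternatives tried, with adjusted p between 6.95e-10 and 0.010 over the edgeR, DESeq2 and limma fits.

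CJA36436 showed the largest fall in the edgeR fit, though CJA07893 fell more without the embryo at 260 minutes (-3.76 against -2.77 on the log2 scale) or at 230 minutes (-2.75 against -2.58), with estimates of -2.851 against -2.849 without that at 200 minutes. The estimate of CJA07893 was also the lower one under DESeq2 (-2.75 against -2.63) and limma-trend (-2.56 against -2.09). The level of CJA36436 was 65.7, 289, 85.7, 0, 34.8 and 19.4 CPM in the embryos from 240 to 290 minutes, against 0, 367, 367, 1049 and 736 CPM in those from 190 to 230 minutes. The 2 values of 0 belong to the shallow embryos at 270 and 190 minutes, and apart from the embryo at 190 minutes the younger embryos all lay above the older ones. The mean was 82.4 ± 106 CPM at 240-290 minutes and 504 ± 401 CPM at 190-230 minutes (SD, n = 6 and 5), a log2 fold change of -2.74 ± 0.65 (SE, edgeR adjusted p = 0.025). It had 55 reads at 240-290 minutes and 436 at 190-230 minutes, so that the younger window held 9.58 times as many per listed-gene read (counting interval 7.22 to 12.9). The embryo at 220 minutes gave 288 of the 436 reads, and the ratio was 5.87 without it. The fall passed in 14 of 20 alternatives, and was lost under DESeq2 (adjusted p = 0.11), limma-trend (adjusted p = 0.99), or without the embryo at 220, 270, 280 or 290 minutes (edgeR adjusted p = 0.11, 0.055, 0.10 and 0.074).

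CJA07893 fell with no overlap between the windows. Its level was 0, 105, 62.3, 0, 0 and 0 CPM in the embryos from 240 to 290 minutes, against 172, 124, 177, 393 and 144 CPM in those from 190 to 230 minutes. All 6 older embryos lay below all 5 younger ones, and 4 of the 6 had no read, among them embryos with 222870 and 82486 reads in all. The mean was 27.9 ± 45.3 CPM at 240-290 minutes and 202 ± 109 CPM at 190-230 minutes (SD, n = 6 and 5), a log2 fold change of -2.68 ± 0.66 (SE, edgeR adjusted p = 0.036). It had 28 reads at 240-290 minutes and 157 at 190-230 minutes, 6.77 times as many per listed-gene read in the younger window (counting interval 4.51 to 10.52). The embryo at 220 minutes gave 108 of the 157 reads and that at 260 minutes 24 of the 28, and the ratio was 3.82 without the first and 22.9 without the second. The fall passed in 12 of 19 alternatives, and was lost under limma-trend (adjusted p = 0.27), without the shallow embryos (edgeR adjusted p = 0.15), or without the embryo at 220, 240, 270, 280 or 290 minutes (edgeR adjusted p between 0.060 and 0.22), and the gene was not among those tested in the fit of the 11 embryos alone. It passed the filter against low counts only with the 140-180 minute embryos in the fit, where its mean was 815 CPM.

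**Figure D2:**
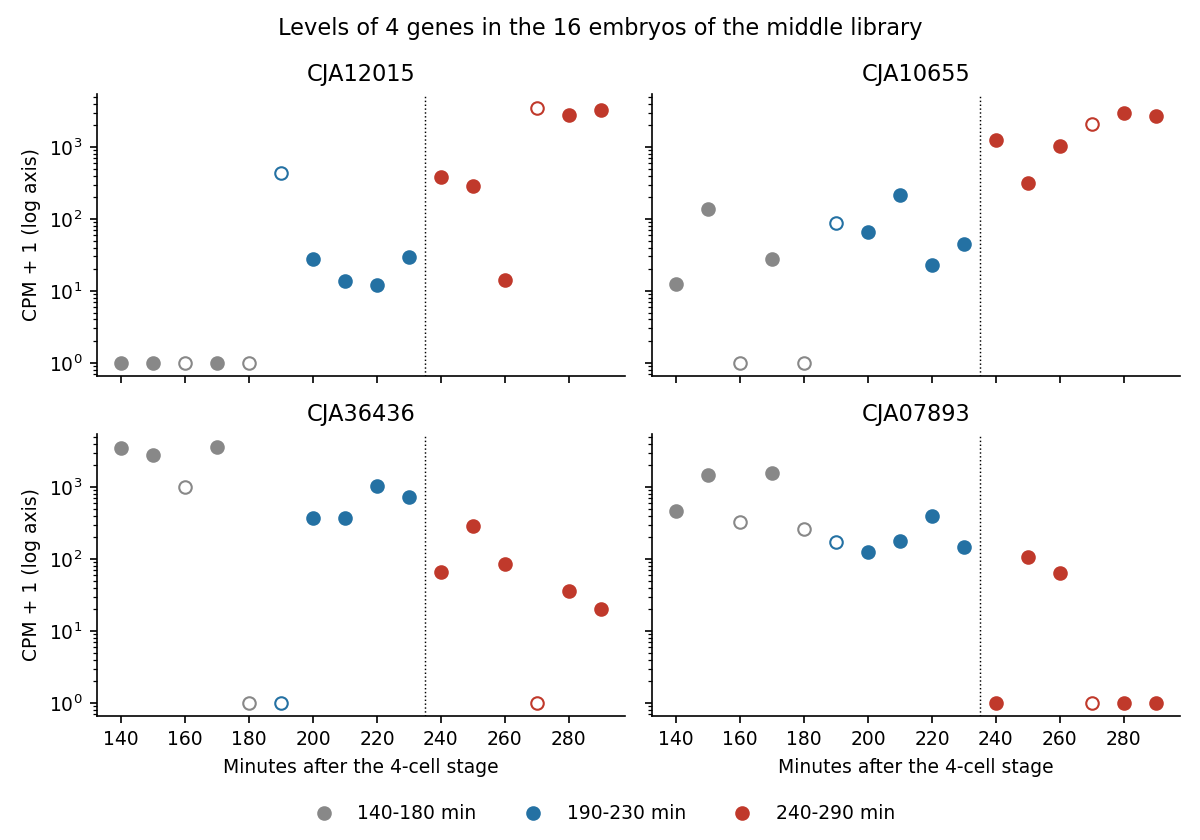
Level of 4 genes as CPM + 1 on a log axis against minutes after the 4-cell stage, with 1 point per embryo of the middle library and open points for shallow embryos; the dotted line separates the compared windows. CJA12015 and CJA10655 reach 3415 and 2970 CPM in the older window, while CJA07893 has 0 reads in 4 of its 6 embryos.

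The 20 genes differed in how far their calls depended on single embryos. Of the 15 rising genes 8 were called again whichever of the 11 embryos was left out, the other rises in 4 to 8 of the 11 fits, and the 5 falls in 4 to 8 of them. In 6 of the 15 rises all older embryos lay above all younger ones, which held for 22 of the 1797 genes (1.22%), and in 2 of the 5 falls all older embryos lay below, which held for 11 of the genes (0.612%). The median CPM of the 15 rising genes was 1233, 289, 527, 876, 2170 and 1358 in the embryos from 240 to 290 minutes and 257, 102, 215, 109 and 57.8 in those from 190 to 230 minutes. The embryo at 250 minutes was the lowest of the older window and lay close to the embryo at 190 minutes, the highest of the younger one. limma-trend called 2 genes, both rises, at its adjusted p under 0.05. The count of 20 was 11, 13, 9 and 11 without the embryo at 220, 270, 280 or 290 minutes and 32, 41, 44 and 46 without that at 210, 230, 250 or 260 minutes. Without the embryo at 220, 280 or 290 minutes 0 falls were called.

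**Figure D3:**
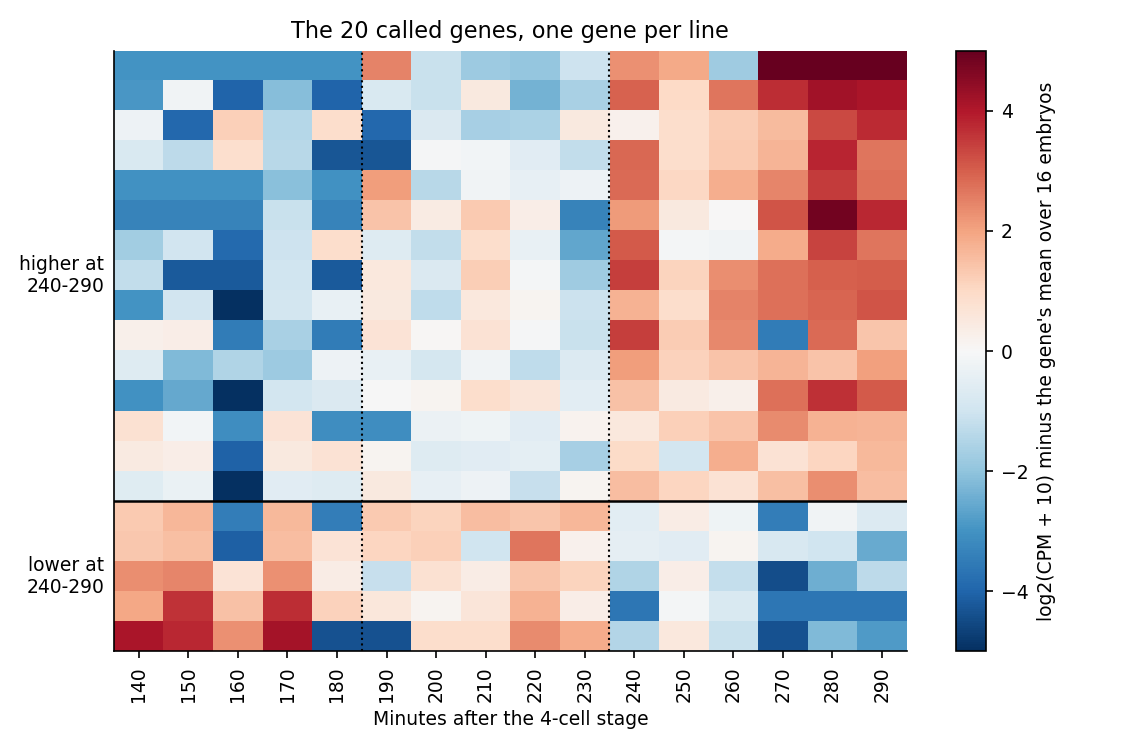
The 20 called genes, 1 per line, in the 16 embryos of the middle library ordered by minutes after the 4-cell stage, coloured by log2(CPM + 10) minus the gene's mean, with colours ending at 5. In the 6 embryos from 240 minutes on, 85 of 90 values of the 15 rising genes (above the black line) lie above the gene's mean, and 26 of 30 values of the 5 falling genes (below it) lie under it. The genes were called on these same embryos, so most values lie on the side of the call by selection. These counts were not tested.

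The order of the embryos within the 11 gave a partly different list. A slope on minutes was called for 31 of 1615 genes (1.92%) in edgeR's quasi-likelihood test, 22 upward and 9 downward, with 209 at an unadjusted p under 0.05. Of the 20 genes 10, each a rise, also had a called slope. All 15 rises entered the slope test but only 4 of the 5 falls, and CJA07893 was the one not tested. The slope was 0.80 ± 0.17 for CJA12015 and 0.63 ± 0.11 for CJA10655 on the log2 scale per 10 minutes (SE, edgeR adjusted p = 0.024 and 0.011). The slope of CJA36436 was -0.46 ± 0.15 (SE) with an edgeR adjusted p of 0.14. The slope count was 5, 1 and 2 without the embryo at 270, 280 or 290 minutes, the oldest. It was 9, 19, 16 and 19 without that at 200, 210, 220 or 250 minutes.

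The 5 embryos from 140 to 180 minutes, in the same library, show where the 20 genes stood just before. From 140-180 to 190-230 minutes 21 of the 1797 genes changed in the same edgeR fit (1.17%), 13 upward and 8 downward, and none of them was among the 20. This earlier comparison shares the 190-230 minute embryos with the later one. CJA12015 had 16 reads at 190-230 minutes and 0 in the 279052 reads of the 5 embryos at 140-180 minutes. CJA10655 had a log2 fold change of 1.37 over that earlier step (edgeR adjusted p = 0.55). CJA36436 and CJA07893 had log2 fold changes of -2.16 and -2.15 over it (edgeR adjusted p = 0.071 and 0.070).

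Embryos outside the compared windows gave calls in the same direction for most of the 20 genes. In 7 embryos from 300 to 360 minutes against the 5 from 140 to 180 minutes, neither group being among the 11 embryos compared, edgeR called 218 of 658 genes (33.1%), 20.8% higher and 12.3% lower. The 5 younger embryos are not fully separate, since they also enter the spread estimate of the fit that called the 20 genes. All 13 rising genes that passed its low-count filter were called higher, with log2 fold changes from 1.82 to 11.02, and both falling genes that passed it were called lower, with -5.93 and -6.02. A gene low in one of these windows passed the filter only through the other, so these counts cover a selected part of the 20. Without the filter, when 14.5% of 3944 genes were called higher and 7.33% lower, the calls held for 14 of the 15 rises and 4 of the 5 falls. The rise and the fall left uncalled there kept their direction, with log2 fold changes of 0.85 and -1.15. Of these 12 embryos 5 were shallow, 3 of the older and 2 of the younger. Without the shallow embryos all 20 genes were tested and the calls again held for 14 of the 15 rises and 4 of the 5 falls, against 15% higher and 8.06% lower among all 2222 genes tested. The median log2 fold change of all tested genes was 0.17 without the filter and 0.14 without the shallow embryos. The count of 218 was 125, 118, 136, 117 and 133 without the embryo at 170, 330, 340, 350 or 360 minutes. The older embryos of this pair are in the late library and the younger in the middle one, so library and time cannot be told apart in it. The columns at 330 and 340 minutes carry suffixes that the sources do not explain, and without these embryos 10 of the 15 rises and none of the falls were tested, with all 10 called higher against 17.4% of 287 genes.

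**Figure D4:**
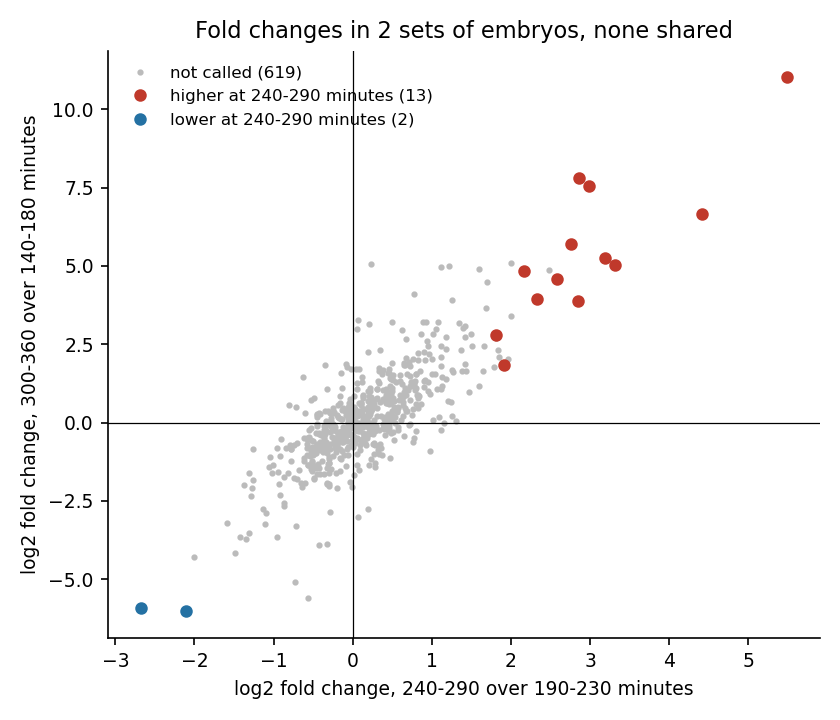
Each point is 1 of 634 genes tested in both comparisons, with the log2 fold change of 240-290 over 190-230 minutes on the x axis and that of 300-360 over 140-180 minutes, in other embryos, on the y axis. The 13 red rising genes lie above 0 and the 2 blue falling genes lie near -6 on the y axis.

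Over the whole course the rising genes had their highest window means in the late library. There 3 of the 7 embryos at 300-360 minutes were shallow, as were those at 390 and 400 minutes, with 2305 and 13455 reads. In CPM of all listed-gene reads, without TMM factors, the window with the highest mean was 300-360 minutes for 6 of the 15 rising genes and 370-430 minutes for the other 9, against 11.1% and 10.46% of all tested genes. The falling genes had theirs in different windows: 2 at 60-100 minutes and 1 each in the 1-, 2- and 4-cell embryos, at 140-180 and at 190-230 minutes. Of the 15 rising genes 2 had 0 reads in the 16 early embryos (13.3% against 0.779% of tested genes), and 4 had 0 reads in the 1-, 2- and 4-cell embryos (26.7% against 4.56%). No falling gene lacked reads in either. Of the rising genes 6 (40%) and 0 of the 5 falling ones carried more than 1 3′ end peak, against 22.6% of tested genes.

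The named genes followed different courses, given here in the same listed-gene CPM. CJA12015 had 2 reads in the early library and none at 140-180 minutes, then averaged 95.8 ± 176 CPM at 190-230 minutes (SD, n = 5), 1397 ± 1368 at 240-290 minutes (SD, n = 6), 3440 ± 1568 at 300-360 minutes and 1788 ± 1040 at 370-430 minutes (SD, n = 7 each). CJA10655 averaged 75.2 ± 64.4 CPM at 190-230 minutes (SD, n = 5), 1401 ± 830 at 240-290 minutes (SD, n = 6), 2921 ± 1774 at 300-360 minutes and 377 ± 417 at 370-430 minutes (SD, n = 7 each). Summed over embryos, CJA10655 had 1156 of 880861 reads at 240-290 minutes, 1095 of 684382 at 300-360 minutes and 289 of 938901 at 370-430 minutes. CJA36436 was present from the first embryos, at 525.6 ± 320.4 CPM in those of 1, 2 and 4 cells (SD, n = 3), stood at 4953 ± 2919 at 60-100 minutes and 1919 ± 1150 at 140-180 minutes (SD, n = 5 each), and then at 431 ± 342 at 190-230 minutes (SD, n = 5) and 68.6 ± 91.5 at 240-290 minutes (SD, n = 6). CJA07893 followed the same course at a lower level, with 245 ± 77.9 CPM in the embryos of 1, 2 and 4 cells (SD, n = 3), 1999.7 ± 1298 at 60-100 minutes (SD, n = 5), 176 ± 90.3 at 190-230 minutes (SD, n = 5) and 23.8 ± 38.8 at 240-290 minutes (SD, n = 6). Both falling genes were therefore already far below their highest window when the compared windows began, and at 300-360 minutes CJA36436 lay between 0 and 78.3 CPM and CJA07893 between 0 and 24.1 CPM over 7 embryos. These levels cross library borders, where library and time cannot be told apart. Each embryo weighs the same in these means. Shallow embryos made up 2 of the 5 at 140-180 minutes and 3 of the 7 at 300-360 minutes, and those at 390 and 400 minutes were shallow too.

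The older embryos also held more reads of genes that the youngest embryos of the series lacked. The early embryos, which are not compared here, sorted the listed genes into the 4 classes. Which genes are listed was not independent of the compared embryos, since no listed 3′ end peak sums to fewer than 98 reads across the series. A gene without early reads owes all its reads to later embryos, among them the 11 compared here. How far this alone moves the class shares was not tested. Genes with 0 reads in the early library (112 genes) made up 0.980% ± 0.314 of the reads at 240-290 minutes and 0.459% ± 0.204 at 190-230 minutes (SD, n = 6 and 5), a difference of 0.521 percentage points (exact permutation p = 0.017, two-sided, adjusted p = 0.023 over the 4 classes). The single values were 0.666%, 0.859%, 0.621%, 1.11%, 1.39% and 1.23% in the embryos from 240 to 290 minutes, against 0.419%, 0.340%, 0.409%, 0.312% and 0.814% in those from 190 to 230 minutes. Only the embryo at 230 minutes overlapped with the older window. Genes first read between 10 and 130 minutes (209 genes) took 3.37% ± 1.05 at 240-290 minutes and 2.42% ± 0.615 at 190-230 minutes (SD, n = 6 and 5, exact permutation p = 0.11, adjusted p = 0.11).

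Genes abundant in the first embryos took a smaller share over the same interval. The 811 genes with at least 100 reads in the 1-, 2- and 4-cell embryos took 53.2% ± 2.69 of the reads at 240-290 minutes and 58.2% ± 1.93 at 190-230 minutes (SD, n = 6 and 5), a difference of -5.02 percentage points (exact permutation p = 0.015, adjusted p = 0.023). Their share was 51.9%, 56.5%, 56.7%, 51.3%, 50.9% and 51.8% in the embryos from 240 to 290 minutes, against 56.5%, 58.99%, 57.2%, 61.2% and 57.1% in those from 190 to 230 minutes. Of the older embryos only that at 260 minutes, at 56.73%, lay within the range of the younger ones. The embryo at 250 minutes, at 56.49%, lay just below the lowest of them (56.53% at 190 minutes), and the other 4 lay further below. The 2823 genes with 1 or more but fewer reads in the first embryos took 42.5% ± 1.96 at 240-290 minutes and 38.9% ± 1.34 at 190-230 minutes (SD, n = 6 and 5), a difference of 3.55 points (exact permutation p = 0.013, adjusted p = 0.023). The 4 shares add up to the whole, so they are not independent of each other. Without the shallow embryos the 3 differences kept their direction and size, but with 5 embryos against 4 their adjusted p was 0.085, 0.079 and 0.079.

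**Figure D5:**
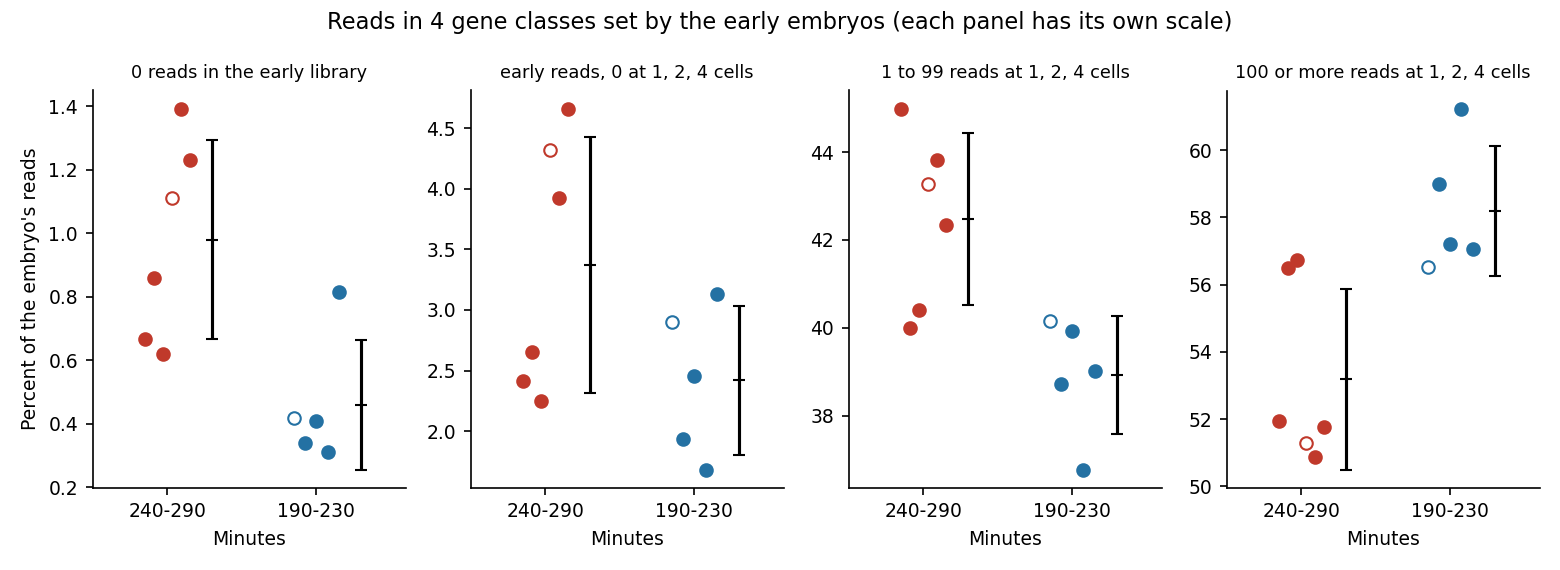
Percent of each embryo's listed-gene reads in 4 gene classes set by the early embryos, 1 point per embryo (open for shallow ones), with the 240-290 minute window left of the 190-230 minute window, mean and SD as bars, and a scale of its own in each panel. The class without early reads averages 0.980% in the older and 0.459% in the younger window, and the class abundant in the first embryos 53.2% and 58.2%.

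No change in the use of alternative 3′ ends was detectable between the windows at this depth. Among 465 peaks tested in 373 genes by quasi-binomial logistic regression, 0 passed (0%) with 25 at an unadjusted p under 0.05, and the lowest adjusted p was 0.30. The peak's share of its gene differed between the windows by a median of 5.43 percentage points in either direction, and by more than 20 points in 17 peaks. In the 331 genes with 2 such peaks, the share of the peak with the higher location number was higher at 240-290 minutes in 168 and lower in 163. What direction these numbers run in was not given in the sources used here, so these counts do not say whether 3′ ends became longer or shorter. Of the 20 genes that changed in total reads, 4 had a tested peak, with a lowest unadjusted p of 0.10 in the same regression.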

How the data were processed

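Each embryo has whole-number counts, deposited by the authors as 1 value per 3′ end peak and 1 total per gene. Totals entered the gene tests and peak values the peak test. CASAVA 1.8, HTSeq 0.5.4p3 and Bowtie2 2.1.0 appear, with no role, per the submitters' processing notes. The build, annotation and peak caller: not given in the sources used here. No molecular identifiers are named, so reads need not be independent counts. The counting intervals treat them as independent and leave out the spread between embryos. Times, barcodes and libraries of the columns come from a sheet that the authors deposited.

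The gene test was edgeR 4.0.16 under R 4.3.3 (filterByExpr by window, TMM factors, quasi-likelihood F test, Benjamini-Hochberg adjustment, threshold 0.05, two-sided) in a fit of the 16 middle-library embryos in 3 windows. Of these 16 embryos 4 were shallow. The filter left 1797 of 3955 genes with 90.1% of the reads. Alternatives used DESeq2 1.42.0, limma 3.58.1, other scalings, filters and sets of embryos. The scripts' methods were tested on simulated data. The embryo is the replicate. Peak shares needed at least 5 reads of the gene in at least 3 embryos per window. Class shares and library measures had exact permutation tests over 462 assignments, whose smallest two-sided p is 0.0043. Genes were named as the 2 largest rises and 2 largest falls at an adjusted p under 0.05 and a mean of at least 20 CPM. Windows and rules were chosen with earlier results of these data known.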

Additional observations from a re-analysis of the deposited data

Results flagged for a closer look

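In 5 of 22 groups of embryos the highest or lowest embryo stood apart from the rest by Dixon's criterion, which marks about 1 in 20 groups by chance. CJA12015 was at 429 CPM in the embryo at 190 minutes, against at most 28.9 CPM in the other embryos of its window, and this embryo is shallow, with 5 reads of the gene. CJA07893 was at 393 CPM in the embryo at 220 minutes. CJA36436 was at 289 CPM in the embryo at 250 minutes, the highest of the older window. After thinning to 12178 reads the embryo at 240 minutes had 2174 genes with a read, the lowest of its window, and its 10 most abundant genes took 14.4% of its reads. Genes without early reads took 0.814% of the reads of the embryo at 230 minutes, the highest of its window and the embryo nearest to the older one.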

How the results depend on the processing

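The count of 20 changed genes was 20 under TMMwsp scaling and under library size alone, 30 with DESeq2, 18 with the 11 embryos alone and 17 without the shallow embryos. It was 2 with limma-trend, 127 without the low-count filter, 124 with all 46 embryos in 1 fit, 41 without the embryos at 230 and 240 minutes, and 31 with a slope in place of windows. Leaving out 1 embryo gave 9 to 46. The slope count of 31 was 61 with DESeq2, 18 with limma-trend, 185 without the filter and 10 without the shallow embryos, and 1 to 42 without 1 embryo. The count of 218 for 300-360 against 140-180 minutes was 134 with limma-trend, 861 without the filter, 513 without the shallow embryos, 86 without those at 330 and 340 minutes and 117 to 316 without 1 embryo. The cause of these moves was not tested. For the slope count and for that of 300-360 against 140-180 minutes, the fits without 1 embryo, without the shallow embryos and without those at 330 and 340 minutes were chosen after seeing the data, as were the ratios of summed reads without 1 embryo. Peak shares gave 0 calls in all 12 alternatives. Without the shallow embryos the class differences were 0.485, 3.70 and -5.06 percentage points, no longer past the threshold. Without 1 embryo they ran from 0.439 to 0.610, 3.01 to 4.05 and -5.73 to -4.26, and that of the class first read at 10 to 130 minutes from 0.692 to 1.18. For the library measures they ran from -0.885 to 0.378 (log2 reads), -5.66 to 55.7 (genes after thinning, past the threshold only without the embryo at 240 minutes) and 0.652 to 1.93 points (10 most abundant genes). The 4 named genes kept their direction in the alternatives that tested them and were the same at a minimum of 100 CPM. No paired analysis was possible because each time has 1 embryo and no number pairs embryos of the windows.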

Other observations

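When weakly expressed genes were kept in the test, more genes were called higher in the older window. Without the filter edgeR called 112 of 3937 genes higher (2.84%) and 15 lower (0.381%) at 240-290 minutes, and the filter had removed 90 and 7 of them. The rises had a median of 86.5 reads over the 6 older embryos and 9 over the 5 younger ones, and 22 of them had 0 reads in the early library, as had 112 (2.83%) of all 3955 genes. Of the 112 rises 16 had 0 reads at 190-230 minutes, a larger share than the 80 of all 3955 genes. A gene with 0 reads there can only be called higher, so this difference is partly fixed by the calling. Most rises were already read in the younger window. There were 10 genes of 3955 with at least 20 reads at 240-290 minutes and 0 reads among the 729065 of the 190-230 minute embryos, which puts them at least 6.35-fold to at least 16.6-fold higher in summed reads, with 3 counts over the younger window as the floor. Among these 10, 5 also had 0 reads at 140-180 minutes and 2 had 0 reads in the early library. No gene (0 of 3955) showed the reverse, with at least 20 reads at 190-230 minutes and 0 at 240-290 minutes. The base for the reverse was smaller, since 54 genes had 0 reads at 240-290 minutes against 80 at 190-230 minutes. The older window has 880861 reads in all and the younger 729065, and these counts were chosen after their values were seen.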
